A study of Mus musculus with 6 samples.

Results

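Single-exon protein-coding genes were the gene models annotated as protein-coding whose start and end lie exactly one model length apart, so that the model holds no intron. Mitochondrial genes and genes whose names start with Hist were left out, and a gene had to reach an FPKM (reads per kilobase of gene model, scaled to the depth of the library) of at least 1 in 3 or more of the 6 libraries. Of 1476 such models before the FPKM threshold, 218 (14.8%) were members, out of 54118 gene models in all. The members were thus chosen by their FPKM, so their level is a description and not a finding. Among the members, 192 reached an FPKM of 1 in all 6 libraries. Another 5 reached it in HuR libraries only (among them Hspa1a, Dnase1, Rep15 and A030005L19Rik), 3 in beta-Gal libraries only (Jrkl, Tpbgl and Wdr5b), and 18 in some libraries of each group. A gene that passed through one group alone had to be higher there. Just inside the threshold, by the lowest of a gene's 3 highest FPKM values, were Mars2 at 1.03, Wdr5b at 1.06 and Timm10b at 1.12. Just outside it were Tssk6 at 0.995, Gm7334 at 0.993 and Frat2 at 0.991.

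The study infected primary hepatocytes, which carry out most metabolic work of the liver, overnight with an adenovirus for HuR (3 libraries) or with a control adenovirus for the bacterial enzyme beta-galactosidase (beta-Gal, 3 libraries). In both groups the cells came from C57BL/6 mice by collagenase perfusion and were cultured in RPMI medium with 2% fetal bovine serum, and the controls carry an adenovirus too. The promoter of the viruses and the age and sex of the mice were not stated in the available descriptions. Nothing in the labels says that the 3 libraries of a group came from separate animals or cultures, so the p-values rest on the spread among these libraries, which may be technical.

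Elavl1 encodes HuR, which binds U-rich and AU-rich stretches of mRNA, mostly in 3' untranslated regions, and is known for stabilising short-lived transcripts. Genes without introns yield mRNAs that never pass through splicing. Many of them are fast-response genes, such as those of AP-1 factors and of inducible heat shock proteins, and others are retrocopies, made when an mRNA of another gene was copied back into the genome. Olfactory, vomeronasal and taste receptors form the largest intronless families of the mouse: 244 of the candidate models bore their names, and 0 of these were members.

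Elavl1 separated the groups: its FPKM was 2434, 1662 and 1709 in HuR libraries, against 5.45, 5.91 and 5.62 in beta-Gal libraries. The libraries held 15413306 to 17108184 reads. HuR replicate 1 stood apart from the other HuR libraries: a chi-square statistic on read counts came to 17.99 and 16.15 per gene between it and HuR replicates 2 and 3, against 4.44 between replicates 2 and 3 and 4.86 to 6.22 between beta-Gal libraries. All 9 hepatocyte markers were present at a mean FPKM of at least 23.7. They summed to 19040 to 20330 FPKM in HuR and 17800 to 18150 in beta-Gal libraries, with 3 called higher and 1 lower. Of 6 Kupffer cell and macrophage markers 1 reached a mean FPKM of 1, and their summed FPKM was 31.08 to 40.03 in HuR and 17.64 to 21.01 in beta-Gal libraries. Of these 6 markers 1 was called higher. The 5 cholangiocyte markers summed to 180.2 to 198 in HuR and 138 to 150.5 in beta-Gal libraries, with 1 called higher and Epcam, Krt19 and Krt7 under a mean FPKM of 0.1. The 6 endothelial markers summed to 5.16 to 6.12 in HuR and 4.08 to 4.43 in beta-Gal libraries, with 0 called, and the 6 stellate cell and fibroblast markers to at most 0.666 and 0.419. The 5 lymphocyte markers summed to at most 0.144 in HuR and 0.0575 in beta-Gal libraries, with Ms4a1 and Nkg7 at 0. The part of non-hepatocyte cells in the results was not tested. In such bulk samples fewer cells of a type and less RNA per cell cannot be told apart.

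The label of the group was checked against GENCODE release M21 on GRCm38, which lists 216 of the 218 gene identifiers, and 186 of these models had equal coordinates. In it 54 members had at least 1 spliced transcript, and 25 had a transcript annotated as retaining an intron. For these the table's model is a union of isoforms that fills the introns, as for Cxcl1, Cxcl2, Zfp36, Gpx1, Mt1 and Cebpa. By blastn, 45 members matched another coding gene over at least 50% of their transcript at 95% identity or more. The members therefore fell into 120 genes with no spliced transcript, 51 with a spliced transcript, 45 near-identical copies and 2 not found in M21. Reads of a copy and of the gene it copies can be split by the counting in ways the table does not show. Of the 218 models, 86 share bases with the span of another named model on either strand, and the strandedness of the libraries is not stated in the labels.

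Since HuR is known for binding AU-rich stretches, one is shown for each of 8 members described below, of which Cxcl2, Cxcl1 and Zfp36 also have spliced transcripts. Each is the 30-base stretch of the longest one-exon transcript in M21 that holds most copies of the letters ATTTA, here in capitals. These 8 lie in 3' UTRs on GRCm38, whereas that of Cyp8b1, found by the same search with 1 copy, lies in coding sequence and is not printed. Those of the chemokine genes are chr5:90905327-90905356 (Cxcl2) and chr5:90892610-90892639 (Cxcl1), on the plus strand. Zfp36 is shown from chr7:28376938-28376967, Jun from chr4:95049204-95049233, Rhob from chr12:8498216-8498245, Klhl9 from chr4:88719354-88719383 and Sephs2 from chr7:127272134-127272163, all on the minus strand. Paqr9 is shown from chr9:95565094-95565123 on the plus strand. The letters are DNA, 5' to 3' on the transcript strand.
Cxcl2: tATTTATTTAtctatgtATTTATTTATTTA
Cxcl1: tATTTATTTAtgtATTTATTTAttccacaa
Zfp36: ATTTAttgtattaagattttatagtATTTA
Jun: ATTTAtaatcataggaaagATTTAgtaatt
Rhob: aagagactattgttactgaATTTATTTAaa
Paqr9: ttaaagctttttttaaaATTTAATTTAcaa
Klhl9: ATTTAatagaattttttctttaaatgaaat
Sephs2: ATTTAttgtcaaatttgttattaatttttt

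The Cxcl2 stretch held 5 overlapping copies of ATTTA and that of Cxcl1 held 4. Those of Zfp36, Jun, Rhob and Paqr9 held 2 each, and those of Klhl9 and Sephs2 1 each. Over its whole one-exon transcript Cxcl2 had 11 copies, Cxcl1 9 and Paqr9 14, the last in a transcript of 8367 bases. Other members held more: Mrpl32, called lower, had 27 in 2903 bases, and Mars2, not called, had 31 in 11294 bases. Mrpl32 also has a spliced transcript, and 3 of its 27 copies lay in the last 1000 bases. In the same last 1000 bases lay all 11 copies of Cxcl2, all 9 of Cxcl1, 6 of Mars2 and 0 of Paqr9. Whether the other copies of Mrpl32 lie in an intron was not tested.

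In HuR libraries 37 single-exon genes rose and 53 fell, while 128 did not pass the test (limma on log2(FPKM + 1), Benjamini-Hochberg over all 11281 models tested, adjusted p under 0.05). That is 41.3% of the members called, against 45.5% of all models tested (20.7% higher and 24.8% lower) and 48.5% of 9462 multi-exon coding genes (20.9% higher and 27.6% lower). The 3 HuR values lay entirely above the 3 beta-Gal values for 57 members and entirely below them for 61, against 58.1% of all models without overlap (27.4% above and 30.7% below) and 62.1% of multi-exon coding genes (28.1% and 34.0%). The median log2 difference of the members was 0.02, against -0.01 over all models and -0.02 over multi-exon coding genes. When each library was rescaled to an equal sum (TPM scaling) the median of all models moved to -0.11 and that of the members to -0.08, with 28 members higher and 68 lower, beside 1543 higher and 3718 lower of all models. After median centring 49 members were higher and 47 lower, beside 2885 and 2391 of all models. Of the 90 calls, 64 held with each library left out in turn, 26 higher and 38 lower. The calls include members that passed the threshold through 1 group alone. Refitted over models with an FPKM of at least 1 in all 6 libraries, 35 of 192 members rose and 51 fell. That is 44.8% of them, beside 46.9% of 9912 models.

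Of the 90 calls, 8 reached 1 or more on the log2 scale, beside 415 of 5137 over all models and 285 of 4585 in multi-exon coding genes. They were Cyp8b1 downward and Cxcl2, Hspa1a, Zfp36, Hspa1b, Gm13889, Dnase1 and Sfn upward, where the direction of Hspa1a and Dnase1 was set by the choice of members. This split depends on the scale, log2(FPKM + 1), which understates fold changes of low genes. The ratio of group means was 0.409 for Cyp8b1, and 0.408 for Gm6741, 0.457 for Klhl9 and 0.460 for Fem1a, all called lower. Upward, it was 2.12 for Sfn, and 2.21 for Hcar2 and 2.05 for Sowahc, both called higher. The 3 kinds of member differed in the balance of their calls. Of the 120 genes with no spliced transcript, 13 rose and 40 fell, with a median log2 difference of -0.13. Of the 51 with a spliced transcript, 10 rose and 10 fell, with a median of 0.05. Of the 45 copies, 14 rose and 3 fell, with a median of 0.11. Some of these calls had a direction set by the choice of members. Those of the first kind include Rep15 and A030005L19Rik, higher, and Jrkl, Tpbgl and Wdr5b, lower. Dnase1 of the second kind and Hspa1a of the third were higher. Refitted over models with an FPKM of at least 1 in all 6 libraries, the counts were 11 and 35, 11 and 11, and 13 and 4. Under TPM scaling the medians were -0.25, -0.05 and 0.01, and the counts of higher and lower genes were 11 and 47, 9 and 15, and 8 and 5. After median centring they were 20 and 36, 15 and 8, and 14 and 3, so that the balance of the genes with a spliced transcript turned with the scaling.

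**Figure D1:**
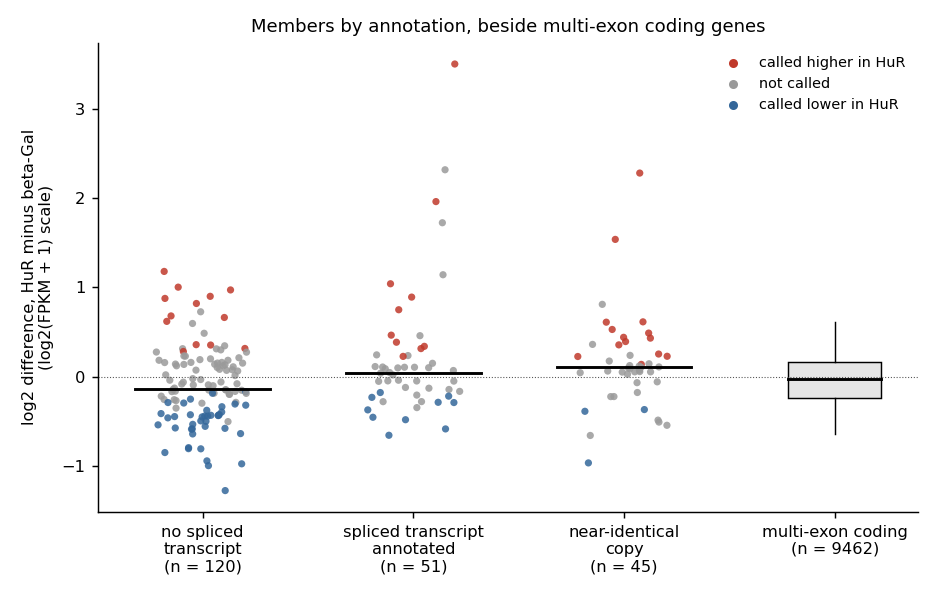
Log2 difference (HuR minus beta-Gal, log2(FPKM + 1) scale) of each single-exon gene by its annotation, one point a gene, with the median as a black line, beside multi-exon coding genes, drawn as median, quartiles and 5th to 95th percentiles. The median is -0.13 for genes with no spliced transcript, 0.05 for those with one, 0.11 for near-identical copies and -0.02 for multi-exon genes. The 2 genes not in M21 are left out.

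The balance also differed with the level. Of 76 members with a mean FPKM of 10 or more, 26 rose and 13 fell, and of 142 below it, 11 rose and 40 fell. The counts below 10 include genes such as Hspa1a, Dnase1, Tpbgl and Wdr5b, whose direction was set by the choice of members. Under TPM scaling these counts were 18 higher and 19 lower, and 10 higher and 49 lower. Without the copies the counts were 14 and 13 of 56, and 9 and 37 of 117. Multi-exon coding genes with a mean FPKM of 10 or more counted 1012 higher and 1000 lower of 3847, and those below it 965 and 1608 of 5615. Under TPM scaling these were 560 and 1452, and 704 and 2008. The difference between these shares was not tested, since members are not replicates.

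**Figure D2:**
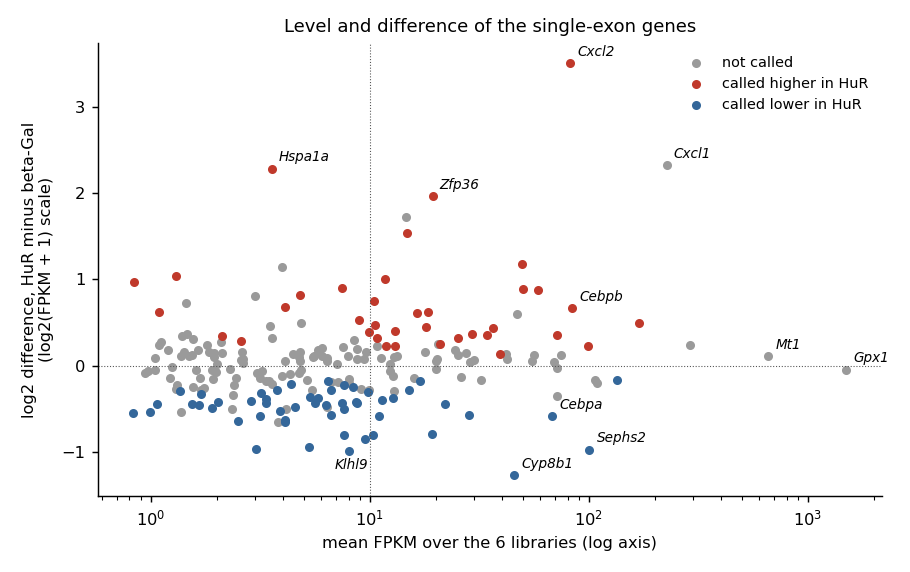
Mean FPKM over the 6 libraries (log axis) against the log2 difference, HuR minus beta-Gal, of the 218 single-exon genes, one point a gene, coloured by call. The dotted vertical line is a mean FPKM of 10. Cxcl2 and Hspa1a lie highest among the calls and Cyp8b1 lowest.

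Cxcl2 had the largest log2 difference of the members. It encodes a chemokine that attracts neutrophils and lies on chromosome 5 from 90903871 to 90905938 (GRCm38). Its FPKM was 382, 44.2 and 44.5 in HuR libraries, against 5.21, 6.60 and 10.5 in beta-Gal libraries. Every HuR library was above every beta-Gal library, and HuR replicate 1 was far above the other HuR libraries. Cxcl2 rose by 3.50 on the log2 scale (SE 0.82, limma adjusted p = 0.0133), and by 2.48 without HuR replicate 1 (adjusted p = 7.3e-04). Its neighbour Cxcl1, which encodes a chemokine of the same kind, had 985, 115 and 118 FPKM in HuR libraries and 43.1, 47.0 and 50.8 in beta-Gal libraries. The groups did not overlap, but the log2 difference of 2.32 did not pass the test (SE 0.80, adjusted p = 0.0518). Without HuR replicate 1 it was 1.29 and passed (adjusted p = 1.2e-04).

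Zfp36 encodes tristetraprolin, an RNA-binding protein that speeds the decay of AU-rich mRNAs. It had 64.8, 17.4 and 15.8 FPKM in HuR libraries, against 6.14, 5.32 and 6.61 in beta-Gal libraries. It rose by 1.96 (SE 0.50, adjusted p = 0.0181), by 1.33 without HuR replicate 1 (adjusted p = 2.2e-04), and the call was lost without beta-Gal replicate 1 (adjusted p = 0.0514) or 2 (adjusted p = 0.0589). Cxcl10, a chemokine induced by interferon, had 66.0, 5.95 and 5.58 FPKM in HuR libraries, against 4.20, 3.00 and 3.07 in beta-Gal libraries. HuR replicate 1 lay far above all the others. The groups did not overlap, but the log2 difference of 1.72 did not pass the test (adjusted p = 0.145). Without HuR replicate 1 it was 0.62 and passed (adjusted p = 0.0097). The interferon regulator Irf7 had 20.7, 20.4 and 18.4 FPKM in HuR libraries and 20.1, 20.9 and 20.2 in beta-Gal libraries, which overlapped.

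**Figure D3:**
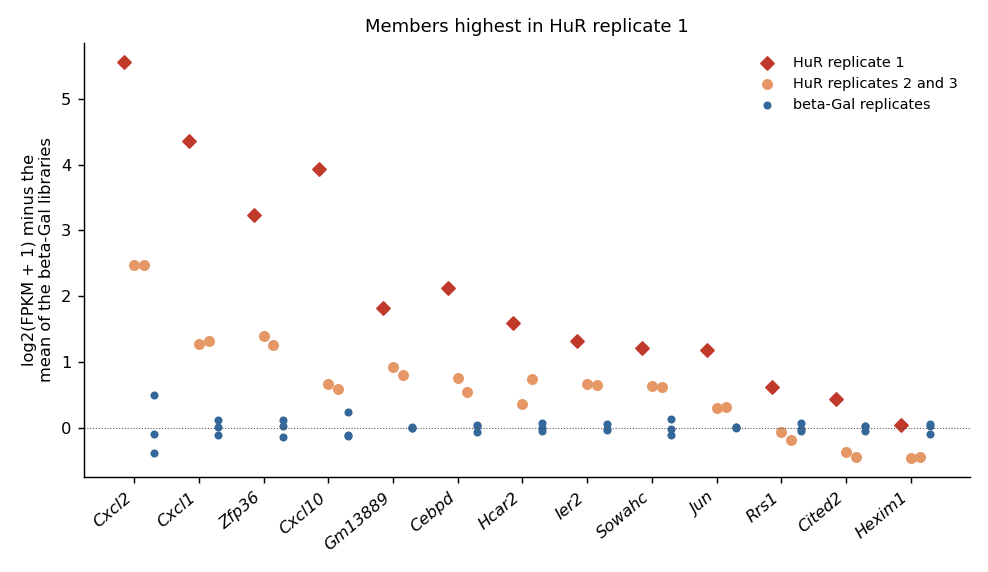
Log2(FPKM + 1) of each library minus the mean of the beta-Gal libraries, for 13 single-exon genes that were at least 1.5 times as high in HuR replicate 1 as in both other HuR libraries. Diamonds are HuR replicate 1, orange points HuR replicates 2 and 3, and blue points the 3 beta-Gal libraries. For Cxcl2, Cxcl1, Zfp36, Cxcl10, Gm13889, Cebpd, Hcar2, Ier2, Sowahc and Jun, HuR replicates 2 and 3 also lie above the beta-Gal libraries.

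The pattern of HuR replicate 1 went beyond these genes. It was at least 1.5 times as high as both other HuR libraries for 16 members and at most 1/1.5 of both for 13. Among the 16 were Cxcl2, Cxcl1, Zfp36, Cxcl10, Gm13889, Cebpd, Hcar2, Ier2, Sowahc, Jun, Rrs1, Gm10269, Cited2, Hexim1 and Gm6020. The members took 1.21% of all reads in HuR replicate 1, 0.947% in each of HuR replicates 2 and 3, and 0.952 to 0.979% in beta-Gal libraries. Most of this excess lay in Cxcl1 and Cxcl2. They held 27814 and 11898 of 193040 member reads in HuR replicate 1. In HuR replicate 2 they held 3620 and 1535 of 156907, and in HuR replicate 3 3451 and 1436 of 145994. Without HuR replicate 1 the counts of calls were 47 higher and 57 lower, and 33 and 47 of these were among the calls with all libraries. That is 47.7% of the members, beside 46.8% of all models (2371 higher and 2913 lower). What set this library apart was not tested.

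Among 6 AP-1 and C/EBP factors, transcription factors that bind DNA as dimers through a leucine zipper, 1 rose, 1 fell and 4 did not pass the test. Counts by list, here and below, stand beside 20.7% higher and 24.8% lower of all models tested. No list was tested as a set. Cebpb, a factor of the acute-phase response, had 132, 93.5 and 86.3 FPKM in HuR libraries, against 62.9, 64.1 and 65.3 in beta-Gal libraries. All HuR libraries were above all beta-Gal libraries, and Cebpb rose by 0.66 (SE 0.15, adjusted p = 0.0108). Cebpa, a factor that maintains the hepatocyte programme, had 50.9, 55.1 and 57.0 FPKM in HuR libraries, against 80.9, 80.2 and 84.4 in beta-Gal libraries. All HuR libraries were below all beta-Gal libraries, and Cebpa fell by 0.58 (SE 0.05, adjusted p = 2.5e-04). The related Cebpd had 11.4, 3.81 and 3.15 FPKM in HuR libraries and 1.92, 1.73 and 1.89 in beta-Gal libraries, with an adjusted p of 0.0502 that became 0.0023 without HuR replicate 1.

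Jun, a subunit of AP-1, had 83.1, 44.6 and 45.0 FPKM in HuR libraries, against 36.1, 35.7 and 36.3 in beta-Gal libraries. The groups did not overlap, and the log2 difference was 0.60 (adjusted p = 0.0725), or 0.30 without HuR replicate 1 (adjusted p = 7.5e-04). Jund, another AP-1 subunit, had 3.19, 3.00 and 3.08 FPKM in HuR and 3.23, 3.92 and 3.80 in beta-Gal libraries (adjusted p = 0.0890). Atf4, the factor of the integrated stress response, had 112, 92.1 and 98.7 FPKM in HuR libraries, against 114, 115 and 119 in beta-Gal libraries, with an adjusted p of 0.0530 that became 0.0027 without HuR replicate 1. Of 18 multi-exon relatives tested, 8 rose and 5 fell. Among them Mafg, a small Maf partner protein, rose by 0.48 (adjusted p = 8.0e-04), and Atf2, a leucine zipper factor activated by stress kinases, fell by 0.65 (adjusted p = 4.3e-04).

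The promoter of Cebpb on GRCm38.p6 (RefSeq, chr2:167688665-167688964, plus strand, 250 bases before to 50 after the start) is shown because it carries both a TATA box (TATAAA) and 5 GC boxes (GGGCGG, overlaps counted), in capitals.
Cebpb: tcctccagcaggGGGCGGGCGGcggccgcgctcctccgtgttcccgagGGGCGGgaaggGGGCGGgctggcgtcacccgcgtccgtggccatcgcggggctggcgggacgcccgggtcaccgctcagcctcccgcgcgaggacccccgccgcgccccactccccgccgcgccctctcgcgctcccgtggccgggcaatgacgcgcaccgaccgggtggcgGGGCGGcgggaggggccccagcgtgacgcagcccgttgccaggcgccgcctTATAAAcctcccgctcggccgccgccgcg

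Of 5 early response proteins, 1 rose and 4 did not pass. Ier2, an immediate early gene, had 102, 65.0 and 63.9 FPKM in HuR libraries, against 39.6, 39.8 and 42.2 in beta-Gal libraries. It rose by 0.88 (SE 0.17, adjusted p = 0.0070), and by 0.66 without HuR replicate 1. Cited2, a partner of the coactivators CBP and p300, had 36.6, 20.6 and 19.4 FPKM in HuR libraries, against 27.2, 25.9 and 27.4 in beta-Gal libraries. HuR replicate 1 lay above and the other HuR libraries below the controls, with an adjusted p of 0.67, or 0.0011 without HuR replicate 1. Id1, an inhibitor of helix-loop-helix factors, had 2.92, 5.08 and 4.70 FPKM in HuR libraries and 2.89, 2.32 and 3.03 in beta-Gal libraries. Its groups overlapped in HuR replicate 1.

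Of 20 multi-exon immediate early genes tested, 11 rose and 1 fell, with a median log2 difference of 0.53. Over multi-exon coding genes 20.9% rose and 27.6% fell. Egr1, a zinc finger factor of the immediate early response, had 178, 86.5 and 83.4 FPKM in HuR libraries, against 13.7, 16.1 and 17.4 in beta-Gal libraries. It rose by 2.72 (adjusted p = 5.2e-04), with HuR replicate 1 again the highest. Btg2, an antiproliferative gene, had 217, 145 and 134 FPKM in HuR libraries, against 43.9, 44.3 and 46.9 in beta-Gal libraries, and rose by 1.82 (adjusted p = 3.3e-04).

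All 3 members from the list of heat shock proteins and co-chaperones passed the test, 2 upward and 1 downward. Hspa1a and Hspa1b encode the inducible Hsp70 chaperone and are near-identical copies of each other, on chromosome 17 from 34969190 to 34972156 and from 34956436 to 34959238. Hspa1a had 7.25, 6.74 and 5.73 FPKM in HuR libraries, against 0.464, 0.445 and 0.771 in beta-Gal libraries, which rest on 324, 336 and 265 and on 23, 23 and 39 reads. Its log2 difference was 2.28 (SE 0.12), in a direction set by the choice of members, since it was one through the HuR libraries alone. Hspa1b had 27.3, 22.8 and 17.5 FPKM in HuR libraries, against 7.16, 6.32 and 7.49 in beta-Gal libraries, and rose by 1.54 (SE 0.15, adjusted p = 4.0e-04). Every HuR library lay above every beta-Gal library for Hspa1b, and also for Hspa1a, where the choice of members fixed this. Their transcripts matched at 99.2% identity over 74.2% of that of Hspa1a, so the split of reads between them is uncertain.

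Dnajc30, a mitochondrial J-domain protein, had 2.16, 2.19 and 2.63 FPKM in HuR libraries and 2.99, 4.11 and 3.21 in beta-Gal libraries. It fell by 0.41 (adjusted p = 0.0233), a call lost in 3 of 6 fits with a library left out (adjusted p up to 0.0663). Of 30 multi-exon heat shock genes tested, 10 rose and 5 fell, with a median of 0.06. Dnajb1, an Hsp40 partner of Hsp70, had 29.2, 24.2 and 23.1 FPKM in HuR libraries, against 11.3, 11.7 and 11.8 in beta-Gal libraries, and rose by 1.07 (adjusted p = 2.0e-04). Hspa8, the constitutive Hsp70, rose by 0.41 (adjusted p = 3.0e-04).

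The promoters of the near-identical Hspa1 pair are shown from chr17:34972107-34972406 (Hspa1a) and chr17:34959189-34959488 (Hspa1b) on GRCm38.p6, minus strand, from RefSeq. Capitals mark 3 GC boxes (GGGCGG) and 1 CCAAT box, read here on the other strand. The windows differ at 4 of 300 bases. The heat shock element searched for, blocks GAA, TTC and GAA set 2 bases apart on either strand, is not in these windows. Only this exact string was sought, so its absence does not exclude other forms of the element. Both windows hold its first 2 blocks (gaagattc).
Hspa1a: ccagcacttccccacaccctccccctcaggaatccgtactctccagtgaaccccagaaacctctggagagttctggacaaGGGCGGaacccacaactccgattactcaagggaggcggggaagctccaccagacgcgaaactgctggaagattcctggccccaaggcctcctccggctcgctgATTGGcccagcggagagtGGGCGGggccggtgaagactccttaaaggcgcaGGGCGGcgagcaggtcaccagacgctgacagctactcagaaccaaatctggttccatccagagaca
Hspa1b: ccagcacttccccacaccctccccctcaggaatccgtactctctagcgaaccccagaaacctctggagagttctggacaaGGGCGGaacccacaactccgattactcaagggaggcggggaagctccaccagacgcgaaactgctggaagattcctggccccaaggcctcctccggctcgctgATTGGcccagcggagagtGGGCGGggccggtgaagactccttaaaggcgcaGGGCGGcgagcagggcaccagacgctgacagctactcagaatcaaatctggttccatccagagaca

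Of 3 metabolic enzymes on the list, 2 fell. Cyp8b1 encodes sterol 12-alpha-hydroxylase, which sets how much cholic acid the liver makes, and lies on chromosome 9 from 121914356 to 121916305. It had 20.8, 30.8 and 27.7 FPKM in HuR libraries, against 66.5, 65.9 and 61.3 in beta-Gal libraries. The highest HuR value was below the lowest beta-Gal value. Cyp8b1 fell by 1.27 (SE 0.13, adjusted p = 5.0e-04), the largest fall among the members on the log2(FPKM + 1) scale. By the ratio of group means Cyp8b1 (0.4093), Wdr5b (0.4087) and Gm6741 (0.4082) were nearly equal. Mocs3, an enzyme of molybdenum cofactor synthesis, had 6.87, 7.09 and 7.74 FPKM in HuR libraries, against 10.1, 9.62 and 10.4 in beta-Gal libraries, and fell by 0.42 (adjusted p = 0.0015).

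Of 13 multi-exon genes of bile acid synthesis tested, 8 fell and 0 rose, with a median of -0.16. Over multi-exon coding genes 27.6% fell and 20.9% rose. Baat, which joins bile acids to taurine or glycine, had 44.6, 46.3 and 47.2 FPKM in HuR libraries, against 80.0, 80.3 and 77.1 in beta-Gal libraries, and fell by 0.77 (adjusted p = 4.1e-05). Akr1d1, the steroid 5-beta-reductase, fell by 0.71 (adjusted p = 0.0022). The promoter of Cyp8b1, which led the falls, is shown from chr9:121916256-121916555 on the minus strand of GRCm38.p6 (RefSeq), with its TATA box in capitals.
Cyp8b1: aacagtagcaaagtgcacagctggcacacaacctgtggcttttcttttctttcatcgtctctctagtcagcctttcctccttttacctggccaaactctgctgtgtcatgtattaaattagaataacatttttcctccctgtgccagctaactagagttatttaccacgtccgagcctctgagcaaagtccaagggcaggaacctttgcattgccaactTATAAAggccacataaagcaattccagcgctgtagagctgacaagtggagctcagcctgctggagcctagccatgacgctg

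**Figure D4:**
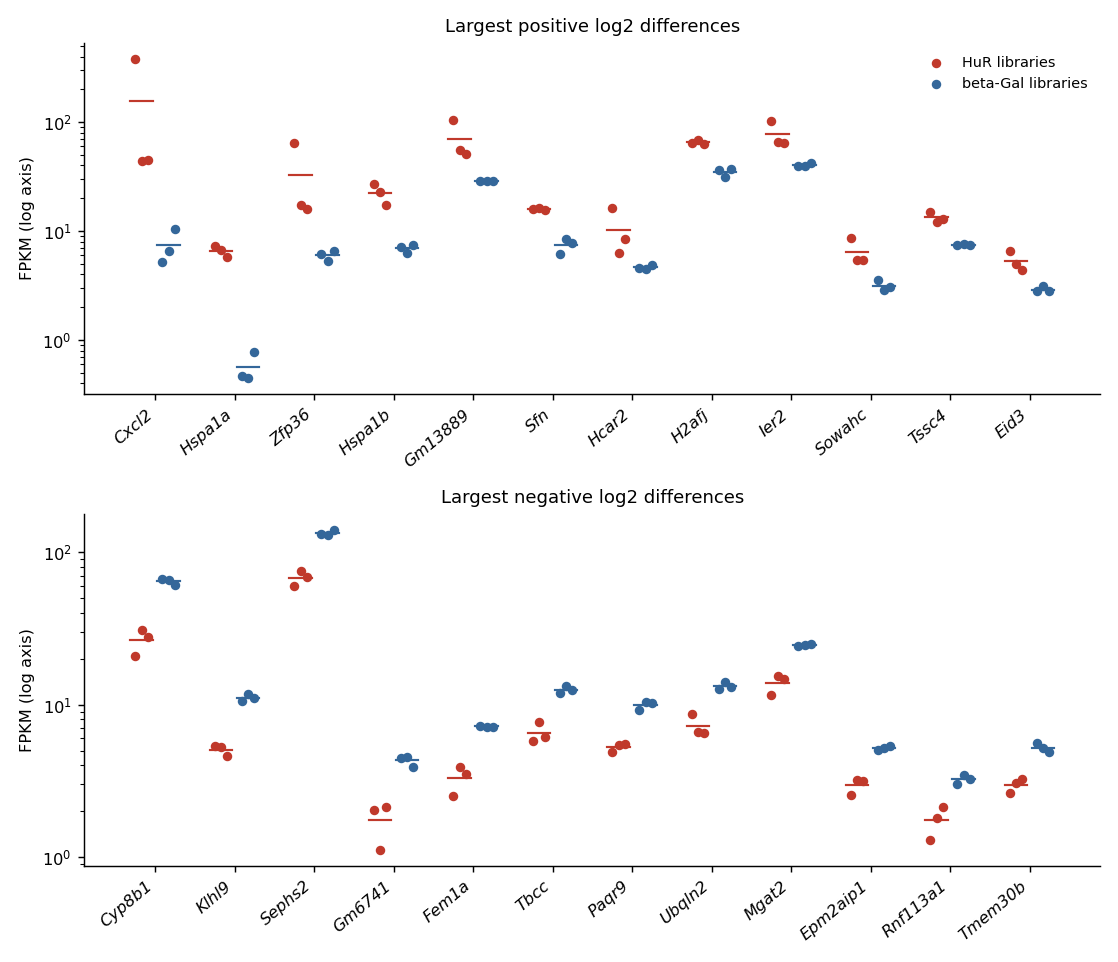
FPKM (log axis) of the 12 called single-exon genes with the largest positive and the 12 with the largest negative log2 differences, drawn from members with mean FPKM not under 2 whose groups did not overlap. Each point is a library (red HuR, left of blue beta-Gal, in order of replicate number) and each line a group mean. The highest HuR point of Cxcl2, Zfp36 and Gm13889 is replicate 1, while the HuR libraries of H2afj and Sfn lie close together.

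Of 7 ubiquitin ligases and BTB or kelch proteins, 4 fell and 0 rose, beside 24.8% lower and 20.7% higher of all models tested. Fem1a, a substrate receptor of a cullin ligase, had 2.52, 3.89 and 3.53 FPKM in HuR libraries, against 7.28, 7.17 and 7.16 in beta-Gal libraries. All HuR libraries were lower, and Fem1a fell by 0.94 (SE 0.12, adjusted p = 0.0011). Rnf113a1, a RING finger protein, fell by 0.64 (adjusted p = 0.0059). Kbtbd7 and Otud1, a deubiquitinase, fell by 0.46 (adjusted p = 0.0203) and 0.18 (adjusted p = 0.0198), and both calls were lost in fits with 1 library left out, with adjusted p up to 0.0692 and 0.0710. That of Otud1 was also lost with the replicate block (adjusted p = 0.0590), with quantile normalization, with median centring and with limma voom.

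Klhl9, a kelch adaptor of a cullin ligase that the list did not hold, had 5.33, 5.25 and 4.61 FPKM in HuR libraries, against 10.5, 11.7 and 11.01 in beta-Gal libraries. It fell by 0.99 (SE 0.07, adjusted p = 1.1e-04). Ubqln2, a shuttle factor that carries ubiquitinated proteins to the proteasome, had 8.68, 6.60 and 6.48 FPKM in HuR libraries, against 12.8, 14.1 and 13.1 in beta-Gal libraries, and fell by 0.80 (adjusted p = 0.0013). In both genes no HuR library reached the lowest beta-Gal library. Sfn, the adaptor protein 14-3-3 sigma, went the other way. It had 15.8, 16.3 and 15.6 FPKM in HuR libraries, against 6.20, 8.53 and 7.74 in beta-Gal libraries, and rose by 1.004 (SE 0.10, adjusted p = 4.5e-04).

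Of 5 glycosyltransferases, sulfotransferases and enzymes of the GPI anchor, 1 rose and 3 fell. Mgat2, which adds N-acetylglucosamine to N-glycans, had 11.6, 15.4 and 14.6 FPKM in HuR libraries, against 24.3, 24.4 and 25.1 in beta-Gal libraries, and fell by 0.79 (SE 0.10, adjusted p = 0.0010). Pigm, a mannosyltransferase of the GPI anchor, had 2.17, 2.44 and 2.37 FPKM in HuR libraries, against 3.96, 3.99 and 3.998 in beta-Gal libraries, and fell by 0.58 (adjusted p = 5.0e-04). Galnt4, which starts O-glycans, fell by 0.49 (adjusted p = 0.0019). Its model lies inside that of Poc1b, at a mean FPKM of 3.69. Chst14, a sulfotransferase of dermatan sulfate, rose by 0.34 (adjusted p = 0.0292), a call lost in 5 of 6 fits with a library left out. Of 42 multi-exon relatives 9 rose and 7 fell.

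Of 5 claudins and leucine-rich membrane proteins, 2 fell and 0 rose, beside 24.8% lower and 20.7% higher of all models tested. Cldn4, a tight junction protein, had 9.84, 8.46 and 7.59 FPKM in HuR libraries, against 14.3, 12.9 and 13.05 in beta-Gal libraries, and fell by 0.59 (adjusted p = 0.0026). The other, Tpbgl, at a log2 difference of -0.54, was a member through the beta-Gal libraries alone, which sets its direction. Cldn3, the most abundant of them, had 95.1, 108 and 97.1 FPKM in HuR libraries and 117, 108 and 112 in beta-Gal libraries, which overlapped (adjusted p = 0.0589, or 0.0211 under TPM scaling).

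Of 5 receptors, 1 rose and 1 fell. Hcar2, the receptor for niacin and ketone bodies, had 16.1, 6.26 and 8.51 FPKM in HuR libraries, against 4.62, 4.46 and 4.92 in beta-Gal libraries. It rose by 0.90 (SE 0.29, adjusted p = 0.0411), a call lost in 4 of 6 fits with a library left out. Lpar6, a receptor for lysophosphatidic acid inside the model of Rb1, fell by 0.33 (adjusted p = 0.0340), a call lost in 5 of these fits. The small GTPase Rhob had 80.0, 55.3 and 54.3 FPKM in HuR libraries, against 81.1, 77.4 and 80.1 in beta-Gal libraries. HuR replicate 1 matched the controls and the other HuR libraries were lower, with an adjusted p of 0.0870, or 1.8e-04 without HuR replicate 1.

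The other lists held few members. Of 3 basal transcription and chromatin factors 1 fell, Tspyl1, a nucleosome assembly protein relative, by 0.50 (adjusted p = 0.0017). Of 4 signalling adaptors Sowahc rose by 0.82 (adjusted p = 0.0076) and Sowahb fell by 0.25 (adjusted p = 0.0118). Both developmental transcription factors, Foxq1 and Sox12, did not pass the test. Sox12 had 4.25, 4.41 and 6.13 FPKM in HuR libraries, against 5.06, 4.31 and 4.70 in beta-Gal libraries. The zinc finger gene Zfp830 did not pass (adjusted p = 0.1005). Of the list of immunity and defence genes, interferons included, 0 were members. Of 35 multi-exon basal transcription factors 9 rose and 6 fell.

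Another 67 members were given roles after their values were seen. Sephs2, which makes the selenium donor for selenoproteins and is a selenoprotein itself, had 59.7, 74.8 and 68.3 FPKM in HuR libraries, against 132, 129 and 139 in beta-Gal libraries. It fell by 0.97 (SE 0.08, adjusted p = 2.2e-04), and the highest HuR value was far below the lowest beta-Gal value. Gpx1, the most abundant member and a selenoprotein that removes peroxides, had 1536, 1407 and 1455 FPKM in HuR libraries and 1501, 1527 and 1511 in beta-Gal libraries, which overlapped (adjusted p = 0.387). Its log2 difference of -0.05 became -0.16 under TPM scaling (adjusted p = 0.0026) and -0.20 with quantile normalization (adjusted p = 0.0011). Mt1, a metallothionein that binds zinc and copper, had 769, 613 and 671 FPKM in HuR libraries and 584, 677 and 640 in beta-Gal libraries, which overlapped too. Among 16 genes of metabolism, redox and mitochondria 1 rose and 6 fell. They include Dolk, the dolichol kinase of glycosylation, which fell by 0.43 (adjusted p = 0.0038), and Pigc, a GPI anchor enzyme, which fell by 0.48 (adjusted p = 0.0098).

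Of 13 genes of vesicle traffic, lysosome and cytoskeleton 2 rose and 4 fell. Tbcc, a tubulin folding cofactor, had 5.82, 7.72 and 6.12 FPKM in HuR libraries, against 11.9, 13.3 and 12.4 in beta-Gal libraries, and fell by 0.85 (adjusted p = 8.3e-04). Rraga, a Rag GTPase that signals amino acids to mTORC1, had 22.6, 23.98 and 21.5 FPKM in HuR libraries, against 36.2, 32.7 and 33.9 in beta-Gal libraries, and fell by 0.57 (adjusted p = 4.4e-04). Chmp1b, an ESCRT-III subunit, fell by 0.58 (adjusted p = 2.9e-04), while Dynll1, a dynein light chain, rose by 0.47 (adjusted p = 0.0024).

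Of 15 genes of ribosome biogenesis and RNA processing 1 rose and 5 fell. Hnrnpa0, an RNA-binding protein of the hnRNP family, had 86.4, 81.7 and 74.3 FPKM in HuR libraries, against 62.3, 62.5 and 63.7 in beta-Gal libraries, and rose by 0.36 (adjusted p = 0.0029). Pcbp1, a poly(C)-binding protein, had 133, 123 and 125 FPKM in HuR libraries, against 142, 137 and 149 in beta-Gal libraries, and fell by 0.17 (adjusted p = 0.0245), a call lost in 4 of 6 fits with a library left out. Of 13 chromatin and transcription regulators 2 rose and 4 fell. H2afj, a histone H2A variant, had 64.8, 68.0 and 62.8 FPKM in HuR libraries, against 36.0, 31.0 and 37.3 in beta-Gal libraries, and rose by 0.89 (SE 0.07, adjusted p = 2.0e-04). Cenpb, a centromere protein, fell by 0.44 (adjusted p = 4.1e-04).

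The remaining 102 members had no role assigned; 21 rose and 16 fell. Gm13889 had 104, 55.1 and 51.0 FPKM in HuR libraries, against 28.7, 28.9 and 28.6 in beta-Gal libraries, and rose by 1.18 (adjusted p = 0.0089). Paqr9, a progestin and adipoQ receptor family member, had 4.87, 5.41 and 5.54 FPKM in HuR libraries, against 9.21, 10.4 and 10.3 in beta-Gal libraries, and fell by 0.81 (adjusted p = 2.4e-04). Tmem30b, a subunit of lipid flippases, fell by 0.64 (adjusted p = 0.0011), and Epm2aip1, a partner of laforin, by 0.65 (adjusted p = 9.3e-04). Tssc4 rose by 0.75 (adjusted p = 5.3e-04). Among all members, some rises lie within the span of an abundant gene. Eid3 rose by 0.68 (adjusted p = 0.0058) inside the model of Txnrd1, at a mean FPKM of 127. Dnase1, a secreted nuclease, had 2.31, 1.97 and 2.04 FPKM in HuR libraries, against 0.699, 0.521 and 0.323 in beta-Gal libraries, a log2 difference of 1.04, and overlaps Trap1, at 67.6. It was a member through the HuR libraries alone, so that its direction was set by the choice of members. The part of these neighbours in the values was not tested.

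The 45 near-identical copies were set beside the gene each copies, with 43 of the copied genes tested. In 11 pairs both genes were called higher and in 2 both lower, and 0 pairs were called in opposite directions. The copy alone was called in 3 pairs and the copied gene alone in 7, and neither in 20. Hspa1a and Hspa1b, each the other's copy, count as 2 of the pairs called higher, where the direction of Hspa1a was set by the choice of members. Signs of the log2 difference matched in 32 of the 43 pairs. The 2 genes of a pair can share reads, so that they are not independent.

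The copy had the higher level, per length, in 10 pairs. Rps27rt, a copy of the ribosomal protein gene Rps27, had 382, 320 and 234 FPKM in HuR libraries and 313, 324 and 170 in beta-Gal libraries, with groups that overlapped. Hmga1b averaged 20.1 FPKM in HuR and 12.7 in beta-Gal libraries and rose by 0.61 (adjusted p = 0.0024), and Hmga1, which encodes a chromatin architecture protein, averaged 143 and 95.6 and rose by 0.57 (adjusted p = 6.0e-04). Gm10131, a copy of Erh, rose by 0.62 (adjusted p = 0.0254), a call lost with a library left out (adjusted p up to 0.0771), and Erh had a log2 difference of 0.07 (adjusted p = 0.222). The difference between them was not tested. Gm6741, a copy of Nanp, had 2.05, 1.12 and 2.12 FPKM in HuR libraries, against 4.50, 4.57 and 3.88 in beta-Gal libraries, and fell by 0.96 (adjusted p = 0.0031). Nanp itself lay under the threshold and was not tested. It averaged 0.773 FPKM in HuR (SD 1.01) and 0.573 in beta-Gal libraries (SD 0.314), and so was not lower in HuR.

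The coding sequence was identical in each of 4 pairs compared base by base: 0 differences over 312 bases between Gm10131 and Erh, 315 between Gm10053 and Cycs, 270 between Gm10282 and Hmgn2 and 321 between Hmga1b and Hmga1. The first 60 coding bases of Gm10053 and of Cycs, the cytochrome c gene, are shown to make this visible, from chr19:24875753-24875812 on the plus strand and chr6:50565601-50565660 on the minus strand of GRCm38. They hold 0 differing bases, so none is in capitals.
Gm10053: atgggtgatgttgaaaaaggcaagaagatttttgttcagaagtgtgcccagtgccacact
Cycs: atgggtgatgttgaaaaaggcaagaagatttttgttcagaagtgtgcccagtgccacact

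**Figure D5:**
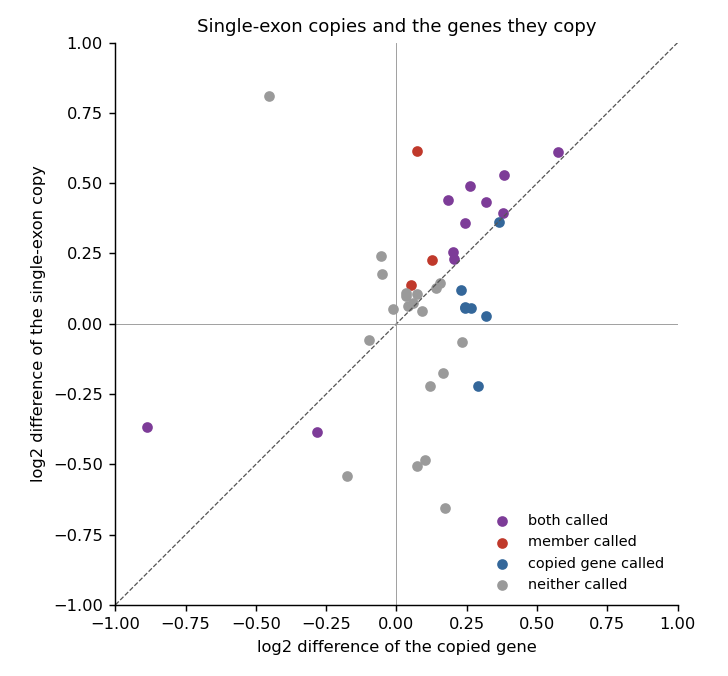
Log2 difference (HuR minus beta-Gal) of each single-exon copy against that of the gene it copies, one point for each of 41 pairs (the Hspa1 pair is left out), coloured by call. The dashed line marks equal values. Pairs called in both genes lie in the upper right or lower left quadrant.

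Transcript sequences of the members were compared with those of multi-exon coding genes, as descriptions without a test. Of 168 members whose longest one-exon transcript had at least 1000 bases, ATTTA occurred in the last 1000 bases of 66.7% of 24 that rose, 72% of 50 that fell and 66% of 94 not called. Among 8925 multi-exon genes the shares were 62.2%, 77% and 64.2%. The letters TATTTAT occurred in 25%, 16% and 21.3% of these members, and in 21.7%, 20.5% and 17.2% of the multi-exon genes. A run of 7 T occurred in 50%, 44% and 31.9% of these members, and in 30.4%, 37.8% and 30.6% of the multi-exon genes. The median GC content was 54.5% in members that rose and 49.8% in those that fell, against 52.6% and 46.2% in multi-exon genes.

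RefSeq promoters on GRCm38.p6, matched by symbol, were found for 138 members and described without a test. They are set beside all RefSeq promoters, with no filter on expression, whereas members had to pass an FPKM threshold. The part of expression in these shares was not tested. Some matched windows lay far from the start of the model, by 10889 bases for Gm10509 and 1210 for Jund. A GC box (GGGCGG, both strands) was present in 94 of the 138 (68.1%), against 35.7% of all 32851 promoters in the table. A TATA box (TATAAA, both strands) was in 13 (9.42%), against 13.6%, and a CCAAT box in 38.4%, against 37.4%. The cAMP response element TGACGTCA was in 8 promoters (5.8%), against 1.79%. The AP-1 element TGACTCA was in 4.35%, against 5.2%. The exact heat shock string, blocks GAA, TTC and GAA set 2 bases apart, was in 0 of the 138, against 0.603%. Other forms of the heat shock element were not searched for. Among the promoters of 20 members that rose, 41 that fell and 77 not called, the GC box was in 15, 22 and 57, the CCAAT box in 9, 12 and 32, and the TATA box in 4, 4 and 5. The AP-1 element was in 2, 3 and 1 and the cAMP response element in 0, 3 and 5.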

How the data were processed

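Sample titles gave the groups and replicate numbers, and the table's headers the columns. The authors deposited 1 table of FPKM for all gene models, with coordinates, model length and biotype; the submitters' processing notes name the build GRCm38.p6 and the tools DESeq2 1.16.1, featureCounts 1.5.0-p3 and HISAT2 2.0.5, with no role or order. Dividing out length and depth turned 100% of the deposited FPKM values into whole reads (tolerance 0.001). In a 1 kb model 3 reads, taken as the floor, are worth 0.172 to 0.199 FPKM, and such floors cover counting error only.

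Values of log2(FPKM + 1) were fitted with limma 3.58.1 (R 4.3.3), using a mean-variance trend and only the group as a term, over models with an FPKM of at least 1 in 3 or more libraries, Benjamini-Hochberg adjusted, two-sided, threshold 0.05. Fold changes on this scale understate those of low genes. The step was tested on simulated data with changes in few genes, an even spread and no library set apart. Since these data differ in this, the simulation says nothing of the error rate here. Copies were sought with BLAST 2.17.0 among GENCODE M21 transcripts. Python 3.11.15, pandas 2.3.3, numpy 2.4.6 and matplotlib 3.10.9 were used.

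The members, role lists and lists of relatives were chosen with earlier results of these data known. Named genes were Elavl1, the 12 largest differences in each direction among called members whose mean FPKM was not under 2 and whose groups were apart, up to 4 called members per role list (with no call, the most abundant), the 8 most abundant members, the 3 on each side of the FPKM threshold and up to 3 called relatives per list. Other members were named after their values were seen. Alternatives were a pseudocount of 0.1, 2 other filters, 3 other scalings, no variance trend, limma voom on recovered whole reads, a block for the replicate number, only protein-coding models, members that overlap no other model, and each library left out. Some genes and 1 list of relatives are not reported here.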

Additional observations from a re-analysis of the deposited data

How the results depend on the processing

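The count of called members stayed within 1.5 times of 90 in every alternative fit, and was 58 among members that share no base with another model, which are fewer by construction. The median log2 difference of the members, 0.02, moved to -0.079 under TPM scaling, 0.063 with median centring and 0.067 among members that share no base with another model, and lay between -0.0133 and 0.0318 with each library left out. Its distance from the median of all models, 0.03, was 0.0076 with quantile normalization and between -0.0026 and 0.0424 with each library left out, so that its sign depended on beta-Gal replicate 2. With each library left out, 71 to 104 members were called. Of 781 values of named members under an alternative, 705 kept their direction and their side of the threshold, 45 lost their call, 26 gained one and 5 turned sign, all of genes that were not called: Mt1 to -0.00306 and Sox12 to -0.0490 under TPM scaling, Rps27rt to -0.0597 without beta-Gal replicate 3, and Sox12 to -0.0923 without HuR replicate 3 and -0.0005 without beta-Gal replicate 2. With each library left out Rps27rt lay between -0.0597 and 0.433 and Sox12 between -0.0923 and 0.129. With no filter on low values 25016 models were tested and 27 members were higher and 40 lower. With the replicate number as a block 84 members were called, 35 higher and 49 lower. Deviations of same-numbered libraries from their group means correlated at -0.029, 0.0007 and -0.014, and those of other-numbered libraries at -0.024 to 0.031. No pairing by number was seen, but this measure cannot exclude one. Causes of these shifts were not tested.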
